A study of Homo sapiens with 6 samples.

Results

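The genes described here build, acidify and regulate lysosomes. They are the MiT/TFE transcription factors, the soluble hydrolases, membrane proteins and cholesterol carriers of the lysosome, and the subunits of its proton pump, the V-ATPase. The 39 genes were chosen by name, with earlier results of these data known, and 38 of them are among the 11048 genes listed in the expression tables. The exception, NEU1, was not analysed here. The study treated MM1.S cells, an established human multiple myeloma line, for 6 h with DMSO (the vehicle), with 3 µM CCF642 or with 3 µM CCF642-34, and sequenced polyadenylated RNA from 2 libraries per group. Both compounds inhibit PDIA1, a disulfide isomerase of the endoplasmic reticulum, and CCF642-34 is an analogue of CCF642. All groups were this 1 line in the same medium, and the labels name no genetic change. The labels do not say whether the 2 libraries of a group came from separate cultures, so the spread between them may be technical. The p-values rest on limma variances drawn mostly from a trend over all genes (prior df 42.92). Each gene's own spread between libraries weighs less (residual df 3).

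Lysosomes degrade proteins, glycans and lipids with hydrolases that work at acid pH. The V-ATPase sets that pH: its cytosolic V1 sector splits ATP and drives protons through the membrane-bound V0 sector. TFEB and TFE3 are held in the cytosol when mTORC1 is active on the lysosome surface, and after release they bind E-boxes upstream of many lysosomal genes. Plasma cells and myeloma cells load this system with misfolded immunoglobulin and with parts of the endoplasmic reticulum taken up by autophagy.

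The letters that TFEB and TFE3 bind are shown first, because they stand upstream of members that moved in different directions. RefSeq promoter sequences (GRCh38.p14, 250 bases before to 50 bases after the start) were matched for 27 of the 38 listed members, and were searched on both strands for the E-box CACGTG, the longer TCACGTG that contains it, the M-box TCATGTG and TGATGNAAN, a composite site read by C/EBP and ATF factors. The E-box was present in 7 of the 27 members (ATP6V0B, ATP6V0D1, CTSA, CTSD, GAA, LAMP1 and MCOLN1), in 10.4% of the 8871 listed genes with a promoter and in 7.43% of all 27305 promoters. Each of those 7 members also held TCACGTG, which was present in 5.95% of listed genes and 3.82% of all promoters. The M-box was present in CTSA and SCARB2 (1.57% of listed genes and 2.99% of all promoters), and TGATGNAAN was in 0 of the 27 (1.6% of listed genes and 3.67% of all promoters). The searched promoters of TFEB, TFE3, MITF and GLA held none of the 4 motifs. A single promoter per gene was searched, and whether MM1.S cells use it was not tested. The bases after the start were found in an annotated transcript of the gene for 22 of the 27. Windows of 100 bases from 6 members follow, 5′ to 3′ on the gene's strand, with TCACGTG in either orientation in capitals. They end at the base before the start, except that of LAMP1, which lies 100 bases further upstream. The coordinates are GRCh38.p14 and not the hg19 build of the expression tables.
ATP6V0D1, chr16:67481158-67481257, minus strand: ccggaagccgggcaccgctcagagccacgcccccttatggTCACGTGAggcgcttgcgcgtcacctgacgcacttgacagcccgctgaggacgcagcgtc
CTSD, chr11:1763928-1764027, minus strand: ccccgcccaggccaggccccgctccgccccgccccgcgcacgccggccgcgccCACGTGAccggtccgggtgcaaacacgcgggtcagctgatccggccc
CTSA, chr20:45891235-45891334, plus strand: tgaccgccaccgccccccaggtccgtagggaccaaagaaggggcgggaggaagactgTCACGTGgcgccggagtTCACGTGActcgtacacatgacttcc
LAMP1, chr13:113297039-113297138, plus strand: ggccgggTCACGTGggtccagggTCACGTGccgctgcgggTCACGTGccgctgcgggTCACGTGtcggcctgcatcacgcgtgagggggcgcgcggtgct
MCOLN1, chr19:7522524-7522623, plus strand: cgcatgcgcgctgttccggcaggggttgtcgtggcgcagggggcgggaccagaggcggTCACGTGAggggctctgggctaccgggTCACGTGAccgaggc
ATP6V0B, chr1:43974860-43974959, plus strand: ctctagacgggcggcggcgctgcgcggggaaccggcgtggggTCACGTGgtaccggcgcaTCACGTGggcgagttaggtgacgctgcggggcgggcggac

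The 6 windows differ in how many E-boxes they carry. CTSD and ATP6V0D1 have a single E-box, ATP6V0B, CTSA and MCOLN1 have 2 each, and the window of LAMP1 has 4 of the 6 found in its promoter.

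The libraries held between 20567313 and 28459677 reads, recovered from the deposited values, and the members took between 0.522% and 0.588% of them. Values are given as CPM, reads relative to the library total, after scaling by TMM factors, and log2 fold changes are on the log2(CPM + 1) scale, which understates changes of weakly expressed genes. A gene is said to have risen or fallen where the limma adjusted p was under 0.05 over all 11048 genes. All 10 plasma cell markers were listed, and they moved in both directions. SDC1, TNFRSF17, CD38, MZB1, JCHAIN and POU2AF1 were lower in all 4 treated libraries than in DMSO, and SLAMF7, IRF4, PRDM1 and XBP1 were higher in all 4. Their summed level was 9409 to 9492 CPM with DMSO, 7295 to 7372 with CCF642 and 7932 to 8013 with CCF642-34, of which JCHAIN made up 4100 CPM in each DMSO library, 1862 and 1959 with CCF642, and 2369 and 2376 with CCF642-34. Of the macrophage markers, whose cells are rich in lysosomes, 0 of 5 were listed, nor were any of 3 B cell markers. The T cell list had 1 of 4, CD3E, at 2.11 to 3.33 CPM. Of the epithelial and fibroblast markers, 3 of 4 were listed, and their sum was 93.9 to 94.5 CPM with DMSO, 138 to 148 with CCF642 and 131 to 134 with CCF642-34, most of it VIM. The part of these shifts in the results was not tested. All libraries were of the MM1.S line, and in bulk RNA fewer cells expressing a gene and less RNA per cell cannot be told apart.

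CCF642 against DMSO asks what the parent inhibitor did to lysosomal transcripts. The factors TFEB and TFE3 rose. Of 14 pump genes 6 rose and 4 fell, and of 8 cathepsins 2 rose and 4 fell. Of 7 other soluble hydrolases and activators 1, the galactosidase GLA, rose and 4 fell. Of 6 membrane proteins and cholesterol carriers 1 rose and 4 fell. At an adjusted p under 0.05, 12 members rose and 16 fell, so that 73.7% were called beside 63.1% of all genes (31.8% higher and 31.3% lower). Among genes with a mean CPM of at least 5, which leaves out CTSH and GAA of the members, 67.8% were called. The median log2 fold change of the members was -0.0032, beside -0.0066 for all genes. Without regard to direction, the median size of the change was 0.24 for the members and 0.29 for all genes. GLA alone changed at least 2-fold at an unadjusted p under 0.05, a limit passed by 6.49% of all genes, and TFEB joined it without CCF642 replicate 1. With scaling by library size alone, 8 rose and 21 fell, and the median of all genes then stood at -0.13. With gene-wise variances the calls on CTSZ, HEXA, NPC1, ATP6V0B, ATP6V0C and ATP6V1B2 were lost.

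CCF642-34 against DMSO asks the same of the analogue, and shares the 2 DMSO libraries with the comparison above. TFEB and TFE3 rose again. Of 14 pump genes 11 rose and 2 fell, and of 8 cathepsins 2 rose and 4 fell. Of 7 other soluble hydrolases and activators 2, GLA and PSAP, rose and 3 fell. Of 6 membrane proteins and cholesterol carriers 1 rose and 2 fell. In total 18 members rose and 11 fell, 76.3% of the members beside 57.6% of all genes (29.7% higher and 27.9% lower). Among genes with a mean CPM of at least 5, 63% were called. The median log2 fold change of the members was 0.097, beside 0.0067 for all genes. Without regard to direction, the median size of the change was 0.26 for the members and 0.25 for all genes. TFEB was the single member past 2-fold, where 3.87% of all genes were. With scaling by library size alone 13 rose and 11 fell, and the median of all genes was -0.078. With gene-wise variances the calls on CTSL, CTSS, GLB1, NPC1, ATP6V0B, ATP6V0E1, ATP6V1B2 and ATP6AP1 were lost, and DESeq2 lost those on CTSL, ATP6V0B, ATP6V0E1 and ATP6V1B2.

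**Figure D1:**
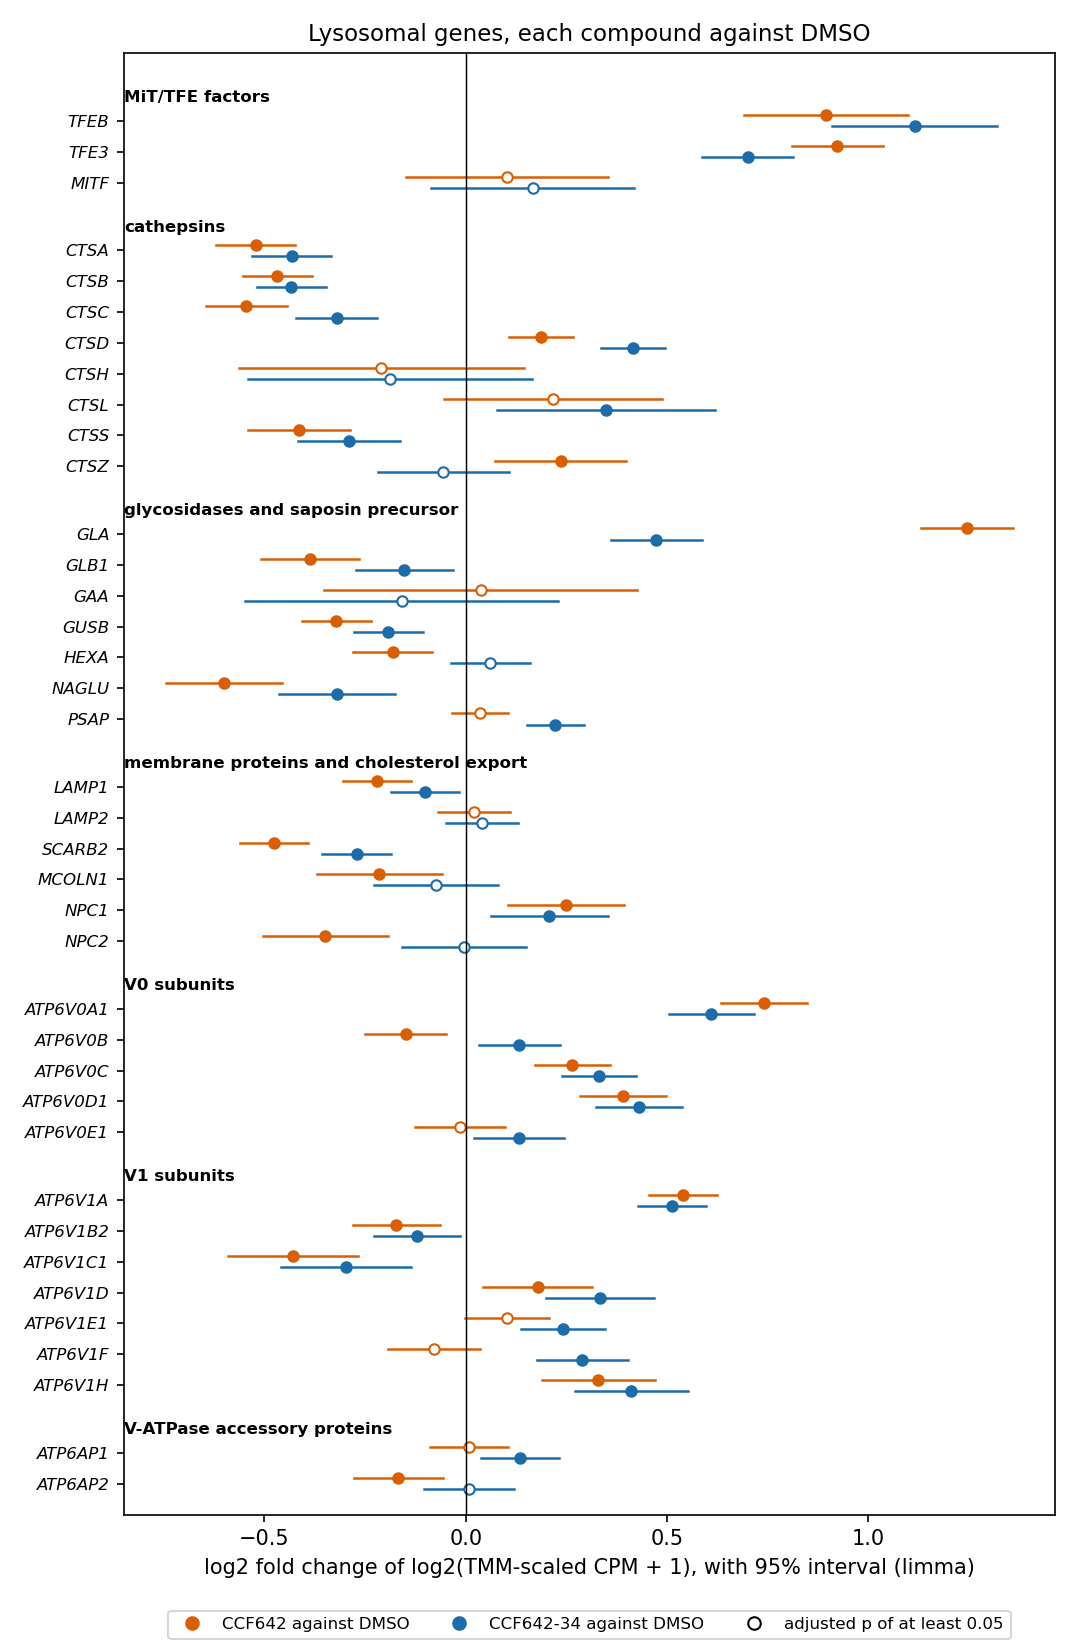
Log2 fold change of each of the 38 listed members on the log2(TMM-scaled CPM + 1) scale (horizontal axis) with its 95% interval from limma, for CCF642 (orange) and CCF642-34 (blue) against DMSO, grouped by role; open circles did not pass an adjusted p of 0.05. TFEB, TFE3 and ATP6V0A1 are among the points farthest to the right for both compounds, with GLA the farthest for CCF642, and CTSA, CTSB and NAGLU are among those to the left for both compounds.

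The direct comparison of CCF642-34 with CCF642, at the same dose and time, is the single pair of compounds tested. Members that differed were mostly higher with CCF642-34: 16 were higher, 3 (GLA, TFE3 and CTSZ) were lower and 19 did not pass, so that 50% were called beside 33.4% of all genes (15.9% higher and 17.4% lower). Among genes with a mean CPM of at least 5, 38.2% were called. The median difference of the members was 0.13 on the log2 scale, beside 0.0093 for all genes. Without regard to direction, the median size of the difference was 0.14 for the members and 0.15 for all genes. None reached 2-fold in limma, edgeR or DESeq2, although 22 members had an unadjusted limma p under 0.05; 0.308% of all genes reached 2-fold. The count of higher members was 10 when CCF642-34 replicate 1 was left out and 19 when CCF642 replicate 2 was. In a linear model with each gene's own variance it was 2 (CTSD and PSAP), with 1 lower (GLA), where 6.69% of all genes were called. DESeq2 lost the calls on ATP6V0E1, ATP6V1E1 and ATP6AP1.

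**Figure D2:**
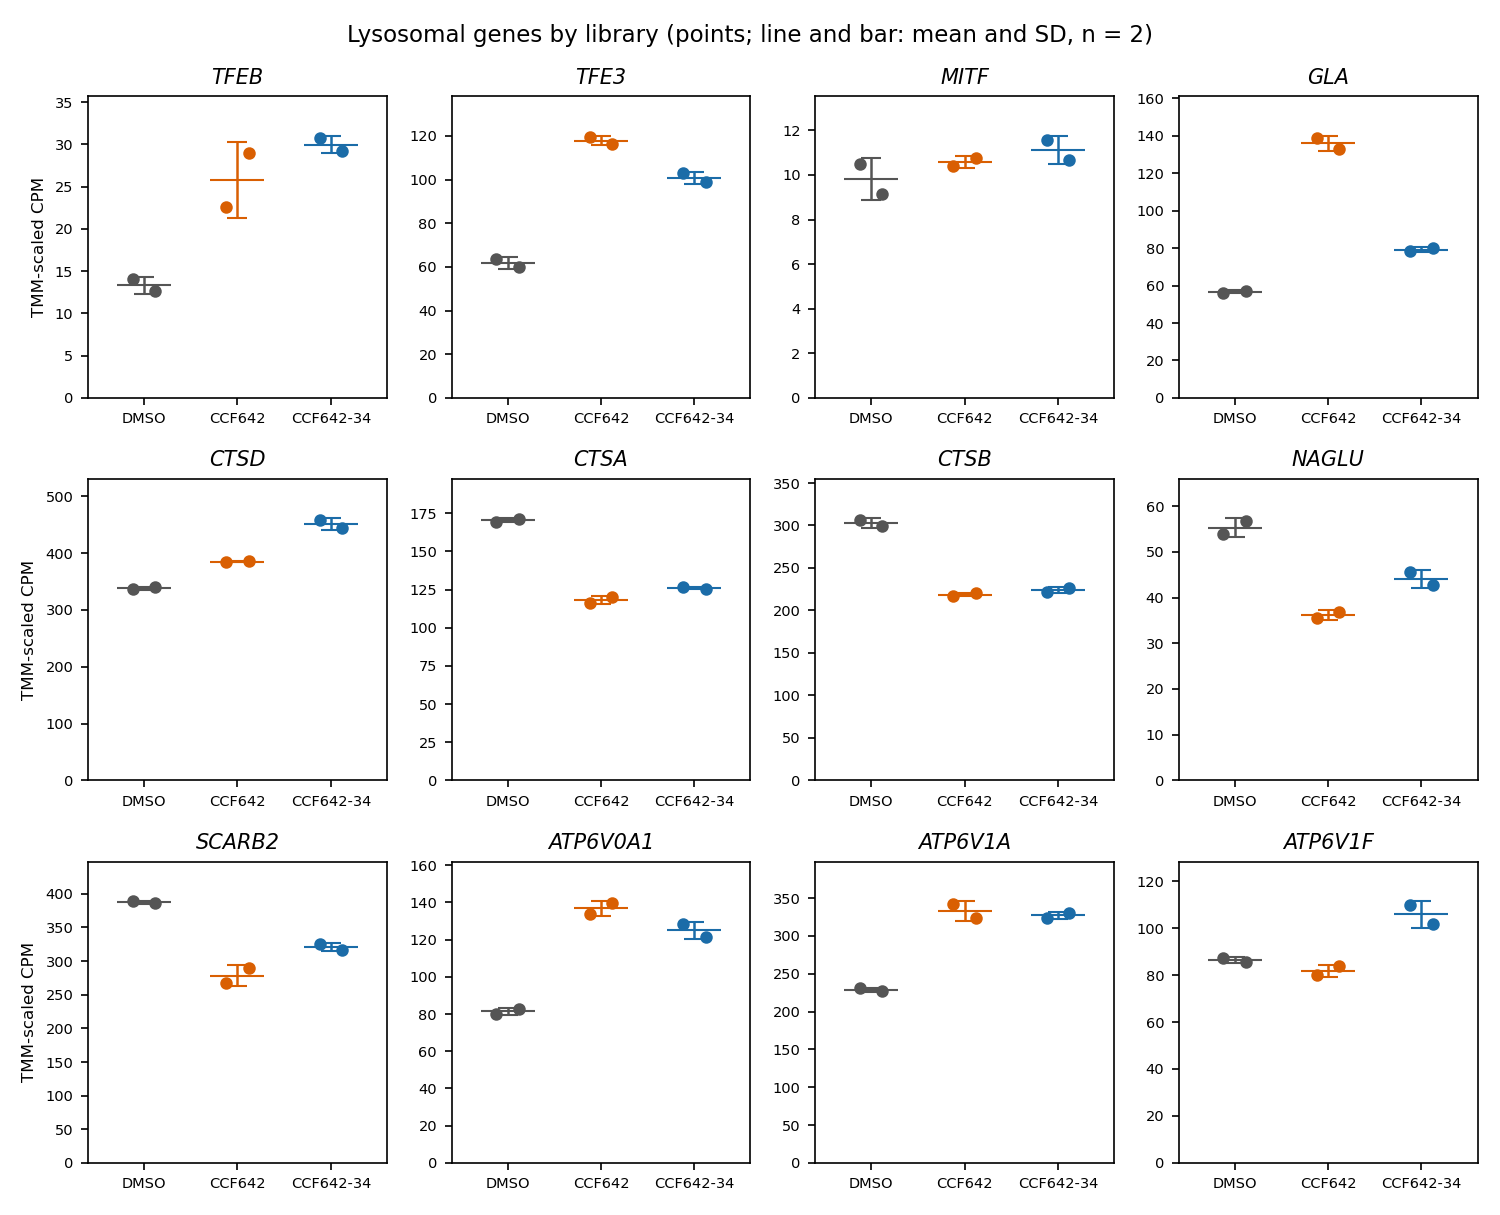
TMM-scaled CPM (vertical axes, from 0) of 12 members in each of the 6 libraries: points are libraries, the horizontal line is the group mean and the bar the SD (n = 2). TFEB, TFE3 and GLA are higher in all 4 treated libraries than in DMSO, CTSA, CTSB, NAGLU and SCARB2 are lower in all 4, and ATP6V1F is higher in both CCF642-34 libraries than in the other 4.

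TFEB and TFE3 rose with both compounds, and MITF did not pass in any comparison. TFEB, the best known regulator of lysosomal genes (chromosome 6), stood at 14.0 and 12.6 CPM with DMSO, 22.6 and 28.96 with CCF642, and 30.7 and 29.2 with CCF642-34. The 4 treated libraries were above both DMSO libraries, and the CCF642 pair was the most spread of the 3. The log2 fold change was 0.89 ± 0.10 (SE, adjusted p = 1.34e-10) with CCF642 and 1.11 ± 0.10 (adjusted p = 2.83e-13) with CCF642-34. Between the compounds TFEB differed by 0.22 (95% interval 0.016 to 0.42, adjusted p = 0.0899), which did not pass. That difference was 0.048 without CCF642 replicate 1 but 0.39 (adjusted p = 0.00399) without CCF642 replicate 2, and 0.26 (adjusted p = 0.04) with library size alone.

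TFE3, a close relative that binds the same E-boxes (chromosome X), stood at 63.7 and 59.8 CPM with DMSO, 119 and 116 with CCF642, and 103 and 98.9 with CCF642-34. No 2 groups overlapped, with CCF642 highest and DMSO lowest. It rose by 89.6% (log2 fold change 0.92 ± 0.056, adjusted p = 1.63e-19) with CCF642 and by 62.4% (0.70 ± 0.056, adjusted p = 4.37e-15) with CCF642-34, and was lower with CCF642-34 than with CCF642 (-0.22, 95% interval -0.34 to -0.11, adjusted p = 0.0016). MITF, the melanocyte factor of the family (chromosome 3), stood at 10.48 and 9.14 CPM with DMSO, 10.4 and 10.8 with CCF642, and 11.6 and 10.7 with CCF642-34. The CCF642 libraries overlapped those of both other groups, while the DMSO and CCF642-34 libraries lay apart. Its log2 fold changes were 0.10 (95% interval -0.15 to 0.35) with CCF642 and 0.17 (-0.085 to 0.42) with CCF642-34, intervals that span 0, and with library size alone the first was -0.019. The calls on TFEB and TFE3 against DMSO held in all 16 alternatives tried, while the lower TFE3 with CCF642-34 was lost with gene-wise variances (adjusted p = 0.0945).

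Among the 8 cathepsins, the proteases of the lysosome lumen, 4 fell and 2 rose with each compound. That was 75% called, beside 63.1% of all genes with CCF642 and 57.6% with CCF642-34. CTSA, CTSB, CTSC and CTSS fell with both. CTSA, a carboxypeptidase that also protects β-galactosidase, stood at 169.5 and 171 CPM with DMSO, 116 and 120.3 with CCF642, and 127 and 125 with CCF642-34. Every treated library was below DMSO. The log2 fold change was -0.52 ± 0.049 (adjusted p = 4.87e-13) with CCF642 and -0.43 ± 0.049 (adjusted p = 1.73e-10) with CCF642-34.

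CTSB, a cysteine protease, stood at 307 and 299 CPM with DMSO, 217 and 220.2 with CCF642, and 222 and 226 with CCF642-34. It fell by 27.7% with CCF642 (adjusted p = 2.23e-13) and fell by 25.9% with CCF642-34 (adjusted p = 3.36e-12). The treated libraries lay close together and well under DMSO. CTSA and CTSB did not pass between the compounds, with differences of 0.090 (95% interval -0.0086 to 0.19) and 0.035 (-0.052 to 0.12), although CTSA was called with library size alone (0.13). CTSS, which trims the invariant chain of MHC class II, had log2 fold changes of -0.42 and -0.29. Its difference between the compounds was 0.13 (95% interval -0.0014 to 0.25), called without CCF642 replicate 2 (0.18) and with library size alone (0.17).

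CTSC, a dipeptidyl peptidase that activates granule proteases, fell further with CCF642 than with CCF642-34. It stood at 157 and 162 CPM with DMSO, 109 and 109 with CCF642, and 129.97 and 125 with CCF642-34, so that no 2 groups overlapped and CCF642-34 lay in between. The log2 fold changes were -0.54 ± 0.050 (adjusted p = 2.15e-13) and -0.32 ± 0.050 (adjusted p = 3.16e-07), and the compounds differed by 0.22 (95% interval 0.12 to 0.32, adjusted p = 0.000394).

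CTSD, the main aspartic protease of lysosomes, rose with both compounds, in contrast to CTSA, CTSB, CTSC and CTSS. Its level increased by 13.9% with CCF642 (adjusted p = 5.75e-05) and by 33.3% with CCF642-34 (adjusted p = 1.06e-12), and the compounds differed by 0.23 (adjusted p = 1.05e-05). With library size alone the rise with CCF642 was 0.053 and not called. Of CTSD exon bases 54.9% are shared with other annotated genes, so reads may be divided among them. Of CTSA exon bases 29.6% are shared, with genes on the opposite strand, and the strandedness of the reads is not given. The promoter windows of CTSD, which rose, and CTSA, which fell, both carry the motif.

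CTSZ, a carboxypeptidase, rose with CCF642 and not with CCF642-34. It stood at 34.0 and 35.7 CPM with DMSO, 41.4 and 41.0 with CCF642, and 36.5 and 30.7 with CCF642-34, and the 2 CCF642-34 libraries lay on either side of DMSO. The log2 fold change was 0.24 with CCF642 (adjusted p = 0.00994) and -0.056 with CCF642-34 (adjusted p = 0.576), and the compounds differed by -0.29 (adjusted p = 0.00403). The rise with CCF642 was not called without DMSO replicate 1 (0.20) or with library size alone (0.105), nor the difference without CCF642-34 replicate 2 (-0.17). CTSL, a cysteine endopeptidase at 8.38 to 12.4 CPM, rose with CCF642-34 (0.35, adjusted p = 0.0243) and was 0.22 with CCF642. That call was lost without DMSO replicate 1 (0.28) or CCF642-34 replicate 2 (0.27), with library size alone (0.27, adjusted p = 0.0871) and in DESeq2 (adjusted p = 0.0848), and without CCF642 replicate 2 CTSL was also called with CCF642 (0.45). CTSL has 5 pseudogenes named after it. CTSH, an aminopeptidase at 3.06 to 4.75 CPM, passed in no comparison.

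GLA, α-galactosidase A, the enzyme lacking in Fabry disease, had the largest change of the 38 members with CCF642. The gene, on chromosome X, stood at 56.3 and 57.3 CPM with DMSO, 139 and 133 with CCF642, and 78.3 and 80.2 with CCF642-34. The groups were widely separated, with CCF642 highest and DMSO lowest. It rose 2.37-fold with CCF642 (log2 fold change 1.24 ± 0.056, adjusted p = 1.97e-24) and 1.39-fold with CCF642-34 (0.47 ± 0.056, adjusted p = 6.73e-10). The compounds differed by -0.77 (95% interval -0.88 to -0.66, adjusted p = 1.34e-15), and all 3 calls held in the 16 alternatives.

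The other glycosidases fell or did not pass. NAGLU, which removes N-acetylglucosamine from heparan sulfate, stood at 53.9 and 56.7 CPM with DMSO, 35.4 and 36.9 with CCF642, and 45.5 and 42.7 with CCF642-34, with each group apart from the others. It fell by 34.0% with CCF642 (log2 fold change -0.60 ± 0.072, adjusted p = 5.13e-10) and fell by 19.9% with CCF642-34 (-0.32 ± 0.072, adjusted p = 0.000163). Between the compounds it differed by 0.28 (adjusted p = 0.00188), a call lost without CCF642-34 replicate 1 (0.24, adjusted p = 0.0506).

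GLB1 (β-galactosidase) and GUSB (β-glucuronidase) also fell with both compounds. GLB1 had log2 fold changes of -0.39 with CCF642 and -0.15 with CCF642-34, and GUSB had -0.32 and -0.19. Both were higher with CCF642-34 than with CCF642, by 0.23 and 0.13. The fall of GLB1 with CCF642-34 was not called without either DMSO library or either CCF642-34 library (-0.13 to -0.17), and the difference in GUSB was not called without CCF642-34 replicate 1 (0.11). GUSB has 11 pseudogenes named after it, with which its reads could be confused, and 23.7% of HEXA exon bases are shared with other annotated genes. HEXA, the α chain of β-hexosaminidase A, fell with CCF642 (-0.18, adjusted p = 0.00123; -0.15 and not called without DMSO replicate 2) and was 0.061 with CCF642-34 (95% interval -0.037 to 0.16; -0.028 with library size alone), a difference of 0.24 (adjusted p = 0.000109).

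PSAP, the precursor of the saposins that present lipids to these enzymes, stood between 1072 and 1274 CPM. It rose with CCF642-34 (0.22, adjusted p = 3.93e-07), was 0.035 with CCF642 (95% interval -0.035 to 0.11; -0.099, and called, with library size alone), and differed between the compounds by 0.19 (adjusted p = 3.43e-05). GAA, which breaks down glycogen, was at 1.92 to 3.381 CPM and passed in no comparison.

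Of the 6 membrane proteins and cholesterol carriers, 4 fell and 1 rose with CCF642, and 2 fell and 1 rose with CCF642-34. Called shares were 83.3% and 50%, beside 63.1% and 57.6% of all genes. SCARB2, the receptor that carries glucocerebrosidase to lysosomes, fell by 28.1% with CCF642 (adjusted p = 8.11e-14) and fell by 17.1% with CCF642-34 (adjusted p = 3.36e-07), and differed by 0.21 between them (adjusted p = 0.000145). LAMP1, an abundant protein of the limiting membrane, fell by 14.2% with CCF642 and fell by 6.78% with CCF642-34. The fall of LAMP1 with CCF642-34 was lost without either DMSO library or either CCF642-34 library (-0.081 to -0.12). The higher LAMP1 with CCF642-34 than with CCF642 (0.12) was lost without any one of the libraries other than CCF642 replicate 2 (0.11 to 0.13). LAMP2, its partner, passed in no comparison, with intervals of -0.069 to 0.11 and -0.048 to 0.13 against DMSO. With library size alone LAMP2 was -0.11, and called, with CCF642 and -0.048 with CCF642-34.

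NPC2, which lifts cholesterol out of the lumen, fell with CCF642 and not with CCF642-34. It stood at 38.7 and 42.3 CPM with DMSO, 31.2 and 32.0 with CCF642, and 40.7 and 39.98 with CCF642-34, so that the CCF642-34 libraries fell within the DMSO range and the CCF642 libraries below both. The log2 fold change was -0.35 ± 0.077 with CCF642 (adjusted p = 0.000107) and -0.0044 with CCF642-34 (95% interval -0.16 to 0.15), a difference of 0.34 (adjusted p = 0.000404). NPC1, the membrane protein that receives the cholesterol, instead rose with both (0.25 and 0.21). Its call with CCF642 was lost without DMSO replicate 1 (0.19), and that with CCF642-34 without DMSO replicate 1 (0.15) or CCF642-34 replicate 1 (0.16). With library size alone NPC1 was at 0.12 for each compound and not called. MCOLN1, the calcium channel upstream of TFEB release, fell with CCF642 (-0.22, adjusted p = 0.0136) and was -0.074 with CCF642-34. The call was lost without DMSO replicate 1 (-0.21), DMSO replicate 2 (-0.22) or CCF642 replicate 1 (-0.20).

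Of the 14 V-ATPase members, 6 rose and 4 fell with CCF642 (median 0.055). With CCF642-34, 11 rose and 2 fell (median 0.27, beside 0.0067 for all genes). That was 71.4% and 92.9% called, beside 63.1% and 57.6% of all genes. Without regard to direction, the median size of the change was 0.18 and 0.29, beside 0.29 and 0.25 for all genes. With library size alone the counts were 5 and 7 for CCF642 (median -0.079) and 8 and 2 for CCF642-34. Leaving out 1 library gave 5 to 7 higher and 2 to 4 lower for CCF642, with 2 lower without DMSO replicate 1 or CCF642 replicate 2. For CCF642-34 it gave 8 to 11 higher, with 8 without DMSO replicate 1 or CCF642-34 replicate 1, and 1 lower without any one DMSO or CCF642-34 library. Between the compounds 6 were higher with CCF642-34 and 0 lower in limma, where 8 members had no call. The 42.9% called stood beside 33.4% of all genes. There were 3 higher without any one library other than CCF642 replicate 2, and 7 without that library.

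In the membrane sector V0, all 5 members rose with CCF642-34 and 3 of 5 with CCF642. Of all genes 29.7% and 31.8% rose. The count with CCF642-34 was 3 without either DMSO library or CCF642-34 replicate 1. ATP6V0A1, the large membrane subunit, stood at 80.2 and 82.8 CPM with DMSO, 134 and 139.7 with CCF642, and 128 and 122 with CCF642-34. All treated libraries were above DMSO, the CCF642 pair the highest. It rose by 67.1% (log2 fold change 0.74 ± 0.053, adjusted p = 4.87e-17) with CCF642 and 52.6% (0.61 ± 0.053, adjusted p = 4.97e-14) with CCF642-34. The difference between the compounds was -0.13 (95% interval -0.24 to -0.024, adjusted p = 0.0506), at the edge of the threshold, and it was called by edgeR (adjusted p = 0.0443) and without CCF642 replicate 1 (-0.16, adjusted p = 0.0298).

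ATP6V0D1, the stalk subunit between the sectors, rose by 31.1% and 34.8% (adjusted p = 1.25e-08 and 1.53e-09), and ATP6V0C, the ring proteolipid, by 20.1% and 25.8%. These increases were called without each library in turn. Between the compounds ATP6V0C differed by 0.066 (95% interval -0.026 to 0.16), called without CCF642 replicate 2 (0.14). Of the ATP6V0C exon bases 72.1% are shared with other annotated genes, and 4 pseudogenes are named after it. ATP6V0E1, given below, also has 4 pseudogenes named after it.

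ATP6V0B, another ring subunit, was the single member called in opposite directions with TMM scaling. It stood at 203 and 205 CPM with DMSO, 195 and 173 with CCF642, and 236 and 213 with CCF642-34. Both CCF642 libraries were below DMSO and both CCF642-34 libraries above, but the 2 libraries of each compound differed widely. The log2 fold change was -0.15 with CCF642 (adjusted p = 0.00856) and 0.13 with CCF642-34 (adjusted p = 0.0209), and the compounds differed by 0.28 (95% interval 0.18 to 0.38, adjusted p = 1.49e-05). With gene-wise variances that difference was not called (adjusted p = 0.17). The fall was lost without DMSO replicate 2 (-0.14) or CCF642 replicate 2 (-0.063), and without CCF642 replicate 1 it was -0.24. The rise was lost without DMSO replicate 1 (0.13), DMSO replicate 2 (0.14) or CCF642-34 replicate 1 (0.061), and without CCF642-34 replicate 2 it was 0.21. With library size alone the rise was 0.044 and not called, whereas the difference between the compounds was called without each library in turn.

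ATP6V0E1, a small subunit of the sector, rose with CCF642-34 (0.13, adjusted p = 0.0377) and was -0.014 with CCF642 (95% interval -0.13 to 0.10; -0.15, and called, with library size alone). The rise was lost without DMSO replicate 1 (0.14), DMSO replicate 2 (0.13) or CCF642-34 replicate 1 (0.080), with library size alone (0.043) and in DESeq2 (adjusted p = 0.0895). The difference between the compounds (0.15) was lost without either DMSO library (0.15), CCF642 replicate 1 (0.10) or CCF642-34 replicate 1 (0.094).

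In the V1 sector, 5 of 7 members rose and 2 fell with CCF642-34, while 3 rose and 2 fell with CCF642. Of all genes 57.6% and 63.1% were called, beside 100% and 71.4% of these members. ATP6V1A, the catalytic subunit that binds ATP, rose by 45.2% with CCF642 and 42.6% with CCF642-34 (adjusted p = 1.33e-15 and 1.02e-14). The difference between the compounds was -0.026 (95% interval -0.11 to 0.059; 0.018 with library size alone). ATP6V1H, which regulates coupling of the sectors, rose with log2 fold changes of 0.33 and 0.41, and ATP6V1D, part of the rotor, with 0.18 and 0.33. Between the compounds ATP6V1D differed by 0.15 (95% interval 0.020 to 0.29), called without CCF642 replicate 2 (0.19) and with library size alone (0.20). The rise of ATP6V1D with CCF642 was lost without DMSO replicate 1 (0.17), DMSO replicate 2 (0.19) or CCF642 replicate 2 (0.14), and with library size alone (0.047).

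ATP6V1F, another rotor subunit, rose with CCF642-34 and not with CCF642. It stood at 87.4 and 85.4 CPM with DMSO, 79.9 and 83.7 with CCF642, and 109.9 and 102 with CCF642-34, and both CCF642-34 libraries were above all others. The log2 fold change was 0.29 ± 0.056 with CCF642-34 (adjusted p = 2.10e-05) and -0.078 with CCF642 (95% interval -0.19 to 0.035; -0.21, and called, with library size alone). The difference of 0.37 (95% interval 0.25 to 0.48, adjusted p = 1.11e-06) was the largest increase among the members in the direct comparison. ATP6V1E1, of the peripheral stalk, rose with CCF642-34 (0.24, adjusted p = 8.96e-05) and was 0.10 with CCF642 (adjusted p = 0.0822; called, at 0.13, without CCF642 replicate 1). The difference in ATP6V1E1 between the compounds (0.14) was lost without any one library other than CCF642 replicate 2 (0.11 to 0.16).

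Both V1 members that fell did so with each compound. ATP6V1C1, a stator subunit on which assembly of the sectors depends, fell by 25.8% with CCF642 and fell by 18.7% with CCF642-34 (adjusted p = 8.30e-06 and 0.00137), and ATP6V1B2, the noncatalytic partner of ATP6V1A, fell by 11.3% and fell by 8.07%. The fall of ATP6V1B2 with CCF642 was lost without DMSO replicate 1 (-0.14) or CCF642 replicate 2 (-0.12), and that with CCF642-34 without either DMSO library or either CCF642-34 library (-0.086 to -0.16).

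The accessory proteins help the pump assemble. ATP6AP1 rose with CCF642-34 (0.13, adjusted p = 0.0146) and was 0.0074 with CCF642 (-0.13, and called, with library size alone). ATP6AP2 fell with CCF642 (-0.17, adjusted p = 0.0077) and was 0.0075 with CCF642-34 (-0.082 with library size alone). The rise of ATP6AP1 was lost without DMSO replicate 1 (0.11) or CCF642-34 replicate 1 (0.12) and with library size alone (0.046), and the fall of ATP6AP2 without DMSO replicate 1 (-0.16). Both were higher with CCF642-34 than with CCF642, by 0.13 and 0.17. The difference in ATP6AP1 was lost without any one library other than CCF642 replicate 2 (0.095 to 0.15), and that in ATP6AP2 without CCF642 replicate 2 (0.15) or CCF642-34 replicate 2 (0.16).

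**Figure D3:**
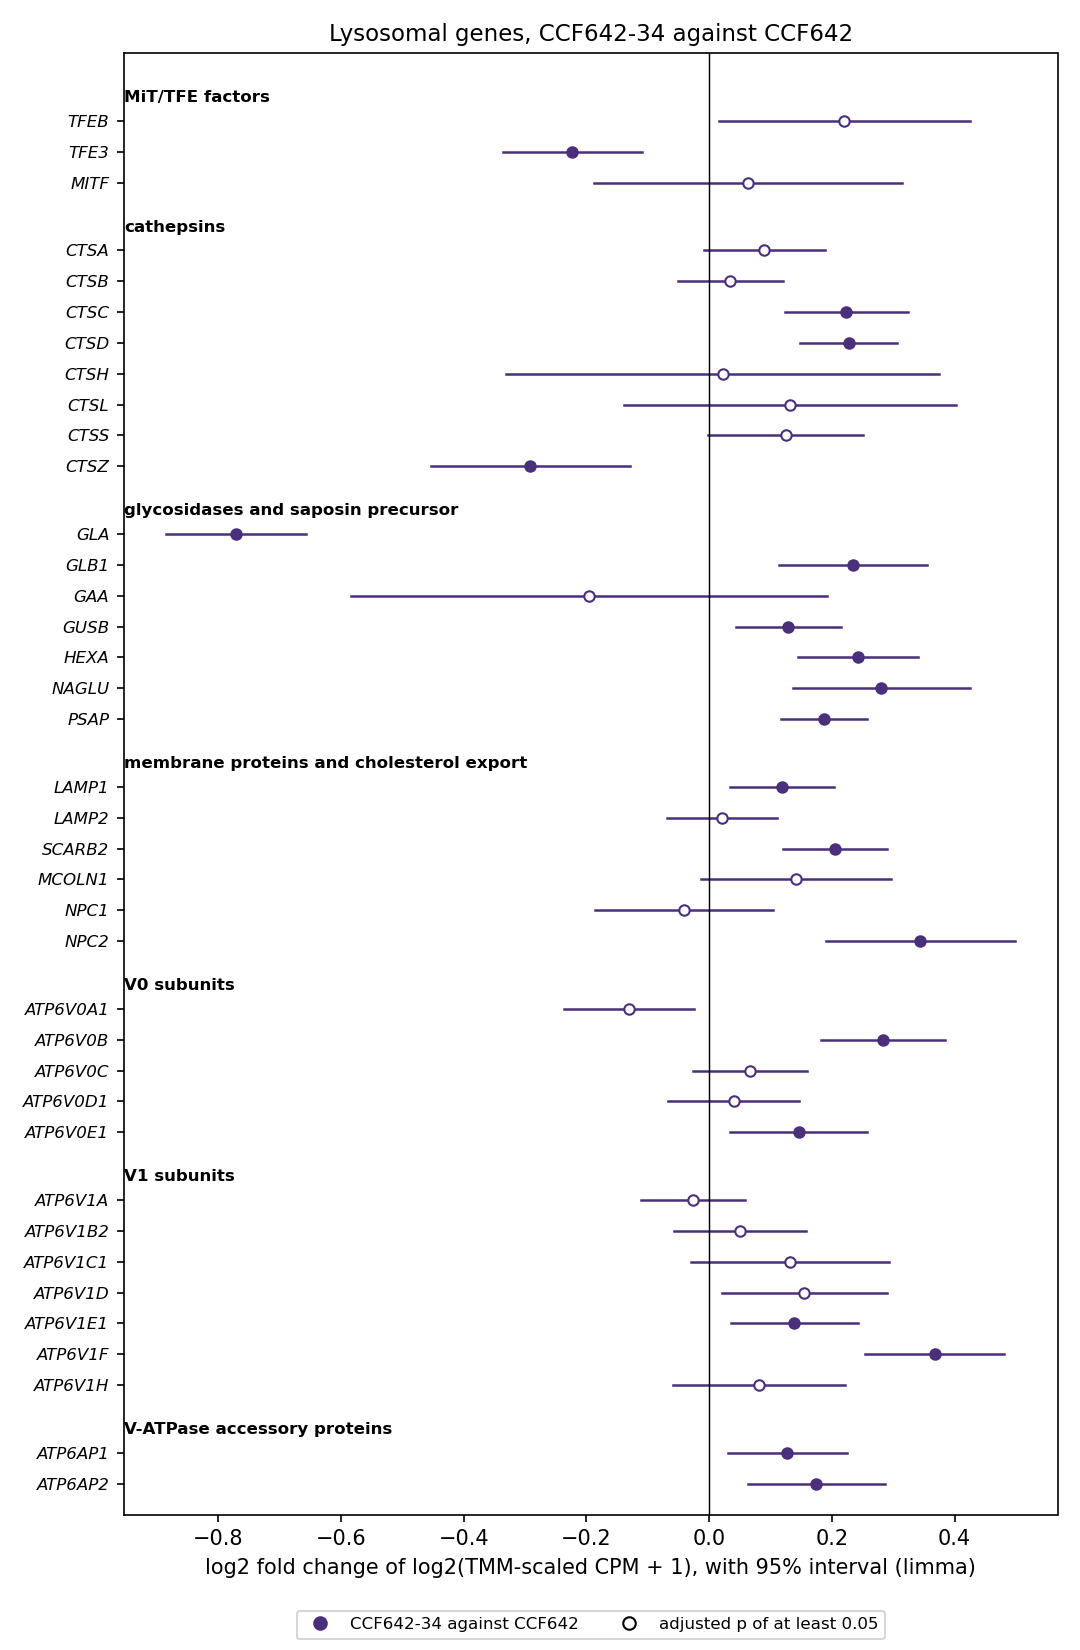
Log2 difference of CCF642-34 from CCF642 for each of the 38 listed members on the log2(TMM-scaled CPM + 1) scale (horizontal axis) with its 95% interval from limma, grouped by role; open circles did not pass an adjusted p of 0.05. GLA lies far to the left, CTSZ and TFE3 are the other filled points below 0, and ATP6V1F, NPC2 and ATP6V0B are farthest to the right.

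Across roles the 38 members fell into many patterns of calls, some of which follow. TFEB, NPC1 and 6 pump subunits (ATP6V0A1, ATP6V0C, ATP6V0D1, ATP6V1A, ATP6V1D and ATP6V1H) rose with both compounds with no call between them. CTSC, GLB1, GUSB, NAGLU, LAMP1 and SCARB2 fell with both, the CCF642-34 libraries standing above those of CCF642. CTSA, CTSB, CTSS, ATP6V1B2 and ATP6V1C1 fell with both with no call between them, and MITF, CTSH, GAA and LAMP2 passed nowhere. The 7 members with an E-box differed in their calls. CTSD and ATP6V0D1 rose with both compounds, and CTSA and LAMP1 fell with both. MCOLN1 fell with CCF642, ATP6V0B had calls in opposite directions and GAA passed in no comparison. The libraries of compound and DMSO did not overlap for 84.2% of the members with CCF642 and 86.8% with CCF642-34, beside 79.4% and 78.9% of all genes. Between the compounds these shares were 76.3% and 63.4%.

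Of 116 further genes of the pathway, 108 were listed, and 29 rose and 42 fell with CCF642 and 24 rose and 27 fell with CCF642-34. In the direct comparison 31 were higher in CCF642-34 and 15 were lower. Called shares were 65.7%, 47.2% and 42.6%, beside the 63.1%, 57.6% and 33.4% of all genes. The count between the compounds, 46, was 29 without CCF642-34 replicate 1, 26 without CCF642-34 replicate 2 and 7 with gene-wise variances.

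Other lysosomal enzymes and activators mostly fell where they moved. Of 31 listed, 6 rose and 14 fell with CCF642 and 5 rose and 10 fell with CCF642-34. That was 64.5% and 48.4% called, beside 63.1% and 57.6% of all genes. GM2A, the activator that presents ganglioside to β-hexosaminidase A, stood at 134 and 137 CPM with DMSO, 64.9 and 62.4 with CCF642, and 71.7 and 75.1 with CCF642-34. Every treated library was far below both DMSO libraries. Its log2 fold changes were -1.08 and -0.88 (adjusted p = 5.43e-22 and 2.22e-18). HYAL2, a hyaluronidase at 8.66 to 10.1 CPM with DMSO, fell with log2 fold changes of -1.12 and -1.09. SGSH, another heparan sulfate enzyme, and DNASE2, the acid DNase, rose, with 0.50 and 0.37 for SGSH and 0.36 and 0.56 for DNASE2.

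Of 23 other membrane proteins and transporters listed, 7 rose and 11 fell with CCF642, and 4 rose and 5 fell with CCF642-34. The shares called were 78.3% and 39.1%, beside 63.1% and 57.6% of all genes. TMEM192 and the amino acid exporter SLC36A1 fell, with log2 fold changes of -0.71 and -0.60 with CCF642 and -0.32 and -0.63 with CCF642-34. Of the related cation channels, TPCN1 fell (-0.37 and -0.51) and TPCN2 rose (0.37 and 0.21).

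Among 13 further V-ATPase subunits and assembly factors, 3 rose and 4 fell with CCF642, and 3 rose and 3 fell with CCF642-34. Called shares of 53.8% and 46.2% were below the 63.1% and 57.6% of all genes. VMA21, which assembles V0 in the endoplasmic reticulum, fell (-0.74 and -0.69), as did ATP6V0A2, an isoform of ATP6V0A1 (-0.54 and -0.41). NCOA7, which binds V1, rose (0.72 and 0.63). ATP6V1G1, a peripheral stalk subunit, rose with CCF642-34 (0.30) and was -0.10 with CCF642, a difference of 0.40 (adjusted p = 9.54e-09).

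The 17 genes that tag and sort hydrolases by mannose 6-phosphate gave 4 rises and 8 falls with CCF642, and 3 and 7 with CCF642-34. Calls thus covered 70.6% and 58.8% of the list, beside 63.1% and 57.6% of all genes. SORT1, a sorting receptor, fell (-0.72 and -0.54), as did the adaptor GGA2 (-0.63 and -0.68) and SUMF1, which activates sulfatases (-0.80 and -0.36). The adaptor subunits AP3D1 (0.40 and 0.28) and AP1G1 (0.30 and 0.25) rose.

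Of the 24 genes of mTORC1 and calcium signalling to TFEB, 9 rose and 5 fell with CCF642, and 9 rose and 2 fell with CCF642-34. These calls were 58.3% and 45.8% of the list, below the 63.1% and 57.6% of all genes. FNIP1, the partner of folliculin, which steers TFEB and TFE3 through RRAGC and RRAGD, stood at 70.7 and 59.2 CPM with DMSO, 112 and 121 with CCF642, and 92.6 and 99.9 with CCF642-34. All treated libraries were above DMSO and the CCF642 pair was highest, with log2 fold changes of 0.84 and 0.57 (adjusted p = 3.00e-16 and 9.73e-11). RRAGC rose as well (0.39 and 0.39), and between the compounds its interval was -0.12 to 0.12. DEPDC5, which restrains mTORC1 when amino acids are short, fell (-0.46 and -0.43).

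**Figure D4:**
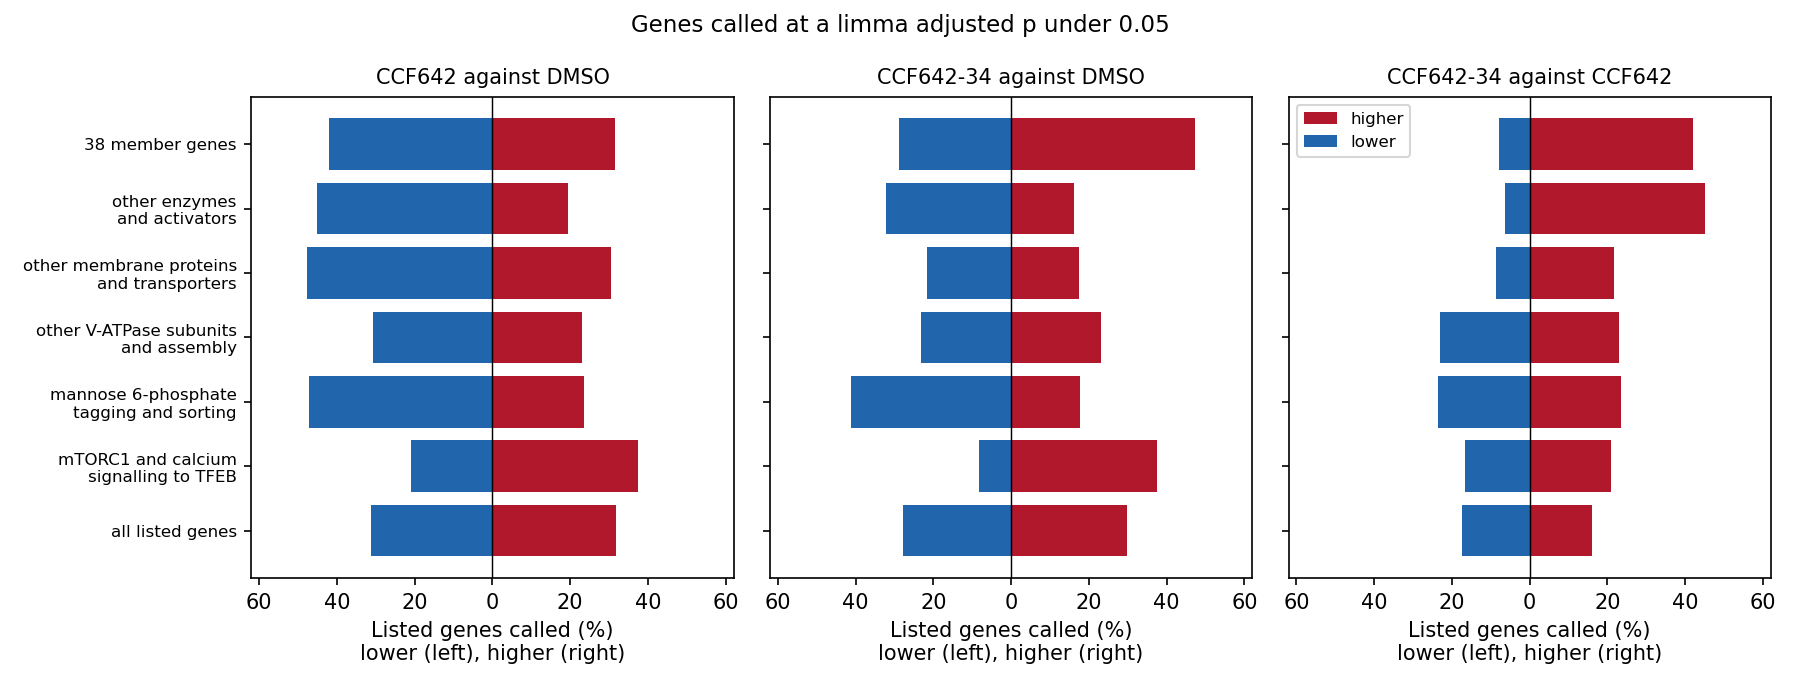
Share (%) of the listed genes called higher (red, right of 0) or lower (blue, left of 0) at an adjusted p under 0.05 in limma, for the 38 members, the 5 lists of further pathway genes and all 11048 genes, in the 3 comparisons. The members show more higher than lower calls with CCF642-34 and in the direct comparison, where all genes are called about equally in both directions.

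The genes whose changes were closest to those of TFEB, by the distance between the log2 fold changes with the 2 compounds among 8922 genes, included IRF4, FAM214B, DGKG and SLFN5. IRF4, a transcription factor on which myeloma cells depend, had log2 fold changes of 0.90 and 1.11, at a distance of 0.00742. DGKG, a diacylglycerol kinase, had 0.93 and 1.08. SLFN5 had 0.86 and 1.06, at a distance of 0.0581. This likeness rests on 2 fold changes that share the DMSO libraries and is a description.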

How the data were processed

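RNA from MM1.S cells was extracted, enriched with oligo(dT) and primed with random hexamers. Per the submitters' processing notes, STAR, edgeR 3.24.3, limma 3.38.3 and hg19 were used. The counting tool, annotation and strandedness are not given in the sources used here. The authors deposited CPM values (counts per library total) for 11048 genes, each reaching at least 1.505 CPM in 1 library or more. A matrix of the whole series held the same values, and its 6 columns were not used. Read counts were recovered from the CPM steps: 100% of values were whole within 0.01 read. The members and lists were chosen with earlier results of these data known.

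TMM factors were computed from the recovered reads with edgeR 4.0.16, and log2(scaled CPM + 1) of the 6 libraries was fitted in 1 model of 3 groups with limma 3.58.1 in R 4.3.3 (lmFit, eBayes with trend, residual df 3, prior df 42.92). p-values were adjusted by Benjamini-Hochberg over all 11048 genes, with intervals at 95%. A 2-fold change at an unadjusted p of 0.05 was the second criterion. The 2-sided tests had 2 libraries per group, whose spread exceeded counting error (mean chi-square 2.29, 4.5 and 3.97 for DMSO, CCF642 and CCF642-34). On simulated counts for CCF642-34 against DMSO (11048 genes), 100 of 100 genes changed 3-fold, 98 of 100 changed 1.5-fold and 15 of 10848 unchanged genes were called. The simulation gave all genes the same dispersion and changed only genes with a mean CPM of at least 5. It left most genes unchanged, whereas 57.6% were called in the data. These rates therefore need not hold for the data or for weakly expressed members. The alternatives were other scalings, pseudocounts of 0.1 and 4, a mean CPM of at least 5, edgeR quasi-likelihood and DESeq2 1.42.0 Wald tests on recovered reads, gene-wise variances, only the groups compared, a replicate block and each library left out. Values in all 6 libraries were given for the MiT/TFE factors, for members past 2-fold and for the 3 largest increases and 3 largest decreases called in each comparison. Of each pathway list, genes were named from the 2 largest increases and 2 largest decreases called with each compound. The 5 genes most like TFEB were ranked by Euclidean distance among genes whose mean log2(CPM + 1) reached 3. A result that needs a withheld item is not reported here. Promoters came from RefSeq, and shared exon bases and pseudogenes from the GENCODE annotation.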

Additional observations from a re-analysis of the deposited data

How the results depend on the processing

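Of the 114 log2 fold changes of members (38 in each of 3 comparisons), 113 kept direction and side of the threshold in edgeR and 107 in DESeq2 Wald tests, where the other 7 lost their call, and 84 with gene-wise variances, where the other 30 lost it. With gene-wise variances the direct comparison had 2 members higher and 1 lower (16 and 3 in limma), further pathway genes called were 28 with CCF642-34 (51 in limma) and 7 in the direct comparison (46 in limma), and calls over all genes were 739 in the direct comparison (3408 at an unadjusted p under 0.05) against 3685. Residual df were 3, and the cause was not tested. With a pseudocount of 4, which shrinks folds by construction, 0 members were past 2-fold with CCF642-34 in limma, where 29 had an unadjusted p under 0.05 and edgeR and DESeq2 each gave 1. Genes past 2-fold with CCF642, CCF642-34 and in the direct comparison were 717, 428 and 34 in limma, 470, 255 and 21 with a pseudocount of 4, 972, 634 and 95 with a pseudocount of 0.1, 996, 668 and 114 in edgeR and 977, 652 and 101 in DESeq2. Leaving out 1 library gave 1 to 2 members past 2-fold with CCF642, 10 to 19 members higher in the direct comparison and 26 to 41 further pathway genes called there.

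Scaling by library size alone moved the median of all genes to -0.13 with CCF642, -0.078 with CCF642-34 and 0.051 in the direct comparison, and the share of calls that were higher from 50.4%, 51.6% and 47.8% to 34.8%, 38.6% and 61.8%. It turned the sign of MITF (-0.019), GAA (-0.065), PSAP (-0.099), LAMP2 (-0.11), ATP6V1E1 (-0.031) and ATP6AP1 (-0.13) with CCF642, of HEXA (-0.028), LAMP2 (-0.048) and ATP6AP2 (-0.082) with CCF642-34, and of NPC1 (0.0022) and ATP6V1A (0.018) in the direct comparison. None of these 11 was called with TMM factors. With 1 library left out, signs turned, again among values without a call, with ranges for CCF642 of -0.010 to 0.45 for CTSL, -0.043 to 0.12 for GAA, -0.0048 to 0.046 for LAMP2, -0.059 to 0.032 for ATP6V0E1 and -0.025 to 0.040 for ATP6AP1. With CCF642-34 they were -0.39 to 0.012 for CTSH, -0.18 to 0.068 for CTSZ, -0.45 to 0.13 for GAA, -0.067 to 0.058 for NPC2 and -0.010 to 0.027 for ATP6AP2. In the direct comparison they were -0.18 to 0.22 for CTSH, -0.10 to 0.36 for CTSL, -0.49 to 0.10 for GAA, -0.091 to 0.011 for NPC1, -0.0047 to 0.14 for ATP6V0C and -0.066 to 0.014 for ATP6V1A.

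The difference between the replicates within a group was correlated across genes with that of each other group. The correlations were -0.0089 (DMSO and CCF642), -0.056 (DMSO and CCF642-34) and 0.047 (CCF642 and CCF642-34). These values gave no sign of pairing by replicate number, and the labels do not say whether the libraries were paired. A fit with the replicate block gave 7014, 6422 and 3802 calls over all genes against 6974, 6362 and 3685, and changed 1 member call, ATP6V0A1 in the direct comparison (-0.13, adjusted p = 0.0486). The intervals of CTSH, CTSL and GAA were the widest of the 38 members, and the part of depth in this was not tested.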
